A study of Mus musculus with 2 samples.

Results

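The genes described here encode the protein components of the cytosolic ribosome, measured by RNA sequencing in 2 mouse livers. They were chosen by symbol: every symbol that begins with Rpl or Rps and a digit, with Rplp0, Rplp1, Rplp2 and Rpsa, and without the S6 kinase genes, Rps19bp1 and pseudogenes named as such. This rule found 91 of 35275 genes in the deposited tables. Of these, 46 are the standard genes of the large (60S) subunit and 31 those of the small (40S) subunit, 10 carry the name of a paralog, and 4 are extra copies (Rpl37rt, Rps27rt, Rps3a2 and Rps3a3). GENCODE M21 annotates 3 of the 10 (Rpl6l, Rps4l and Rps12l1) and all extra copies but Rps27rt as processed pseudogenes.

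The series concerns a mouse with liver-specific loss of Tsc1, in which the growth kinase mTORC1 is constantly active and liver cancer arises. 1 library came from a wild type liver and 1 from a liver labelled LTsc1KO, whose genotype is given as TSC1-/-. Both mice were C57BL/6 animals aged 10 months. Sex and the driver of the deletion were not given in the sources used here, while the series' text speaks of tumours where the labels of both samples say liver. With 1 library per genotype no test across samples is possible, so "higher" and "lower" below compare these 2 libraries only, and a difference may be one between animals. Both libraries are named here by their labels, which the targeted gene did not check: Tsc1 was at an FPKM (reads per kilobase of transcript, relative to the library's depth) of 4.90 in the WT-labelled library and 4.79 in the LTsc1KO-labelled library. The 8 hepatocyte markers were all expressed in both libraries. Totals recovered from the deposited values were 27919645 reads in the WT-labelled library and 29351163 in the LTsc1KO-labelled library.

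Each ribosome carries 1 copy of nearly every ribosomal protein, so cells make these proteins in matched amounts from many separate genes. Their mRNAs begin with a 5′ terminal oligopyrimidine tract (the TOP motif), a run of C and T bases behind a first C, through which mTORC1 controls how strongly the mRNAs are translated. FPKM measures how much of an mRNA is present and not how strongly it is translated.

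Ribosomal protein mRNAs were among the abundant mRNAs of both livers. 84 of the 91 genes counted as expressed, meaning that either library reached an FPKM of 1, and 82 of them passed in both libraries. Rpl3l and Rpl24 passed through the WT-labelled library only. The 7 that did not pass were the paralogs Rpl6l, Rpl10l, Rpl39l and Rps12l1 and the extra copies Rpl37rt, Rps3a2 and Rps3a3. Rpl10l and Rps12l1 had 0 reads in both libraries, which in a transcript of 1000 bases allows an FPKM of up to 0.107 in the WT-labelled library and 0.102 in the other. Rpl37rt was the highest of the 7, at 0.587 in the WT-labelled library and 0.768 in the LTsc1KO-labelled library.

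All 91 genes together took 4.22% of summed FPKM in the WT-labelled library and 4.79% in the LTsc1KO-labelled library. That order depends on the denominator: without the 10 most abundant genes of either library the shares were 6.02% and 5.68%. Those genes differed in weight, since the 10 most abundant took 24.9% of summed FPKM in the WT-labelled library and 14.5% in the LTsc1KO-labelled library. 70 ribosomal protein genes stood among the 500 most abundant genes in each library. The median rank of the expressed ribosomal protein genes, counted from the most abundant gene, was 266 in the WT-labelled library and 262 in the LTsc1KO-labelled library. The rank does not depend on how the libraries are scaled to each other.

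The 77 standard genes had similar levels. Their median FPKM was 413 in the WT-labelled library and 401 in the LTsc1KO-labelled library. Within 2-fold of that median lay 62 genes in the WT-labelled library and 65 in the LTsc1KO-labelled library. The large subunit genes had a median FPKM of 371 in the WT-labelled library and 372 in the other. The small subunit genes had a median of 483 in the WT-labelled library and 403 in the LTsc1KO-labelled library. Across the 77 genes Spearman's rho between the libraries was 0.68 and Pearson's r of log2 FPKM was 0.93, a description over genes that share the same 2 libraries.

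Rplp1, a small acidic protein of the ribosomal stalk that recruits translation factors, had the highest level in the WT-labelled library, with an FPKM of 1594 there and 1462 in the LTsc1KO-labelled library. Rps18, in the head of the small subunit, followed at 988 in the WT-labelled library and 726 in the LTsc1KO-labelled library. Rpl41, the shortest protein of the ribosome, was at 875 in the WT-labelled library and 1428 in the LTsc1KO-labelled library, where it was second to Rplp1 among ribosomal protein genes. Rpl13a, which in human cells also takes part in a translation-silencing complex (GAIT), was at 825 in the WT-labelled library and 587 in the LTsc1KO-labelled library. Of the coding bases of Rpl13a, 97.5% overlap Gm45713 on the same strand, which was at 1.81 and 2.36. Rps14, a small subunit protein, was at 771 and 582 in the same order. These 5 genes had the highest levels in the WT-labelled library, and 4 of them were lower in the other library. Choosing genes by a high level in a library favours lower values in the other, so this count gives no direction for abundant genes.

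6 of the 77 standard genes had an FPKM under 100 in each library. Rpl24 was at 1.24 in the WT-labelled library (18 reads) and 0.656 in the LTsc1KO-labelled library (10 reads), and its ratio of 0.528 had a counting interval of 0.218 to 1.21. Rpl23a was at 8.73 in the WT-labelled library and 12.9 in the LTsc1KO-labelled library. Of the coding bases of Rpl23a, 55.3% are overlapped by other annotation on the opposite strand. Rpl12, a protein of the stalk base, was at 27.6 in the WT-labelled library and 29.3 in the LTsc1KO-labelled library. All 3 are standard parts of the large subunit, and none of their coding sequence was unique to them: every 36-base word of it also occurs in a transcript of another annotated gene. That is not particular to low genes, since it held for 32 of the 77 standard genes, Rpl41 and Rps6 among them. Across the 77 genes the share of unique words had a Pearson's r of 0.09 and a Spearman's rho of 0.001 with the mean log2 FPKM. Of the coding bases of Rpl24, 83.4% overlap the annotated gene Gm28037 on the same strand, which had an FPKM of 0 in both libraries. Levels also depend on the transcript length behind each FPKM. The mean length over a gene's annotated transcripts gave whole reads for 39 of the 91 genes. For Rps15a that mean was 1860 bases and did not give whole reads, so the length behind its FPKM is not known. Rps15a stood at 68.1 in the WT-labelled library and 81.1 in the LTsc1KO-labelled library.

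**Figure D1:**
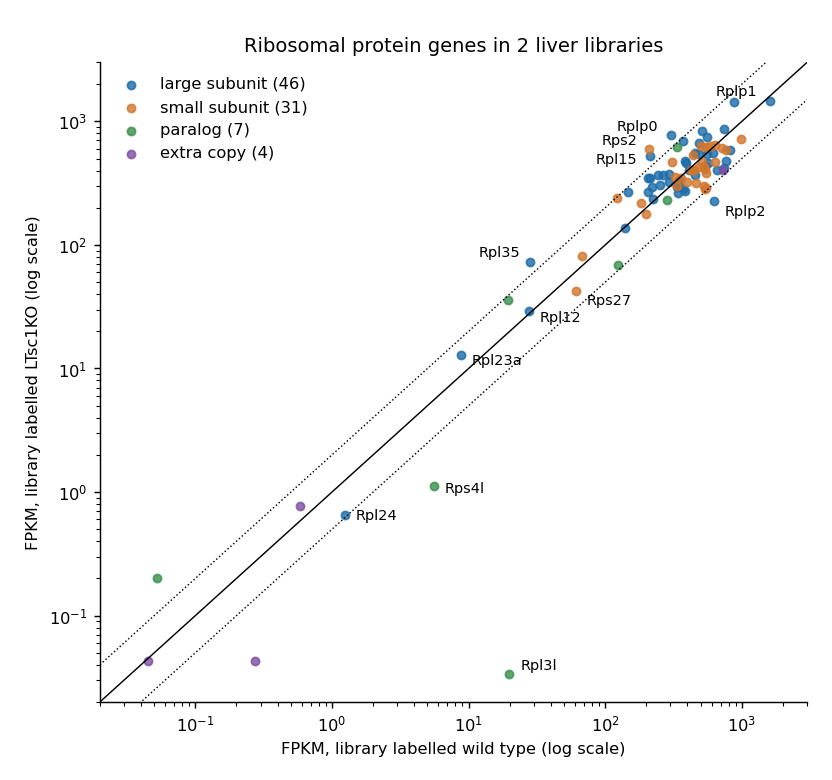
FPKM of the 88 ribosomal protein genes with a value above 0 in both libraries, with the WT-labelled library on the x axis and the LTsc1KO-labelled library on the y axis (both log scales). Points stand for genes, coloured by class, the solid line marks equal values and the dotted lines mark 2-fold; most points lie in a tight cloud between 100 and 1000, and Rpl3l lies far below it.

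Between the libraries, most ribosomal protein genes differed by less than 2-fold. The log2 ratio of an expressed gene, log2((FPKM + 1)/(FPKM + 1)) of the LTsc1KO-labelled library over the WT-labelled library, had a median of -0.03 over the 84 genes, with quartiles of -0.37 and 0.34. 4 of the 84 were at least 2-fold higher in the LTsc1KO-labelled library, where 35.6% of all 12395 expressed genes were. 3 of the 84 were at least 2-fold lower, where 6.15% of all expressed genes were, and 77 lay between. Across all expressed genes the median was 0.70, and 71 of the 84 ribosomal protein genes stood below it. The median's sign depends on scaling: it was 0.15 with both libraries set to equal sums of FPKM and -0.74 with the median ratio of genes expressed in both libraries set to 0. The distance to the median of all genes moved less, from -0.83 to -0.70 over the 6 scalings tried. A scaling multiplies every gene of a library by the same factor and moves both medians together. It therefore leaves this distance little room to change.

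The counts past 2-fold move with the scaling as well. With the median ratio set to 0, 0 of the 84 genes were higher (15.6% of all genes) and 28 lower (12.7%). With equal upper quartiles 0 were higher (12.9%) and 37 lower (15%), while equal sums of FPKM gave 9 higher (42.4%) and 3 lower (5.32%). Totals without the 10 most abundant genes gave 4 higher (32.4%) and 4 lower (6.63%), and totals without the skeletal muscle markers gave 4 higher (35.4%) and 3 lower (6.15%). Under each of the 6 scalings the ribosomal protein genes had a smaller share of higher genes than all genes did. Their share of lower genes was below that of all genes as deposited and above it with the median ratio set to 0. Of the 77 genes within 2-fold, 44 changed sign under at least 1 of the scalings, so the direction given for such a gene holds for the deposited scale.

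Abundant genes as a class had lower ratios than all genes, so the same was read from genes of like abundance. Of the 1306 genes that reached an FPKM of 100 in either library, 28.5% were at least 2-fold higher and 15.2% lower, and their median was 0.36. A narrower class of 110 other genes had mean levels between the quartiles of the standard ribosomal protein genes, an FPKM of 308 to 516. Their median log2 ratio was 0.03, close to that of the ribosomal protein genes. Their ratios were spread more widely: in the LTsc1KO-labelled library 22 of them (20%) stood at 2-fold higher or more and 21 (19.1%) at 2-fold lower or more. The interquartile range was 1.59 for these 110 genes, 0.64 for the 77 standard ribosomal protein genes and 1.15 for all expressed genes. Of the 77 standard genes, 72 lay within 2-fold, with 4 higher and 1 lower.

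**Figure D2:**
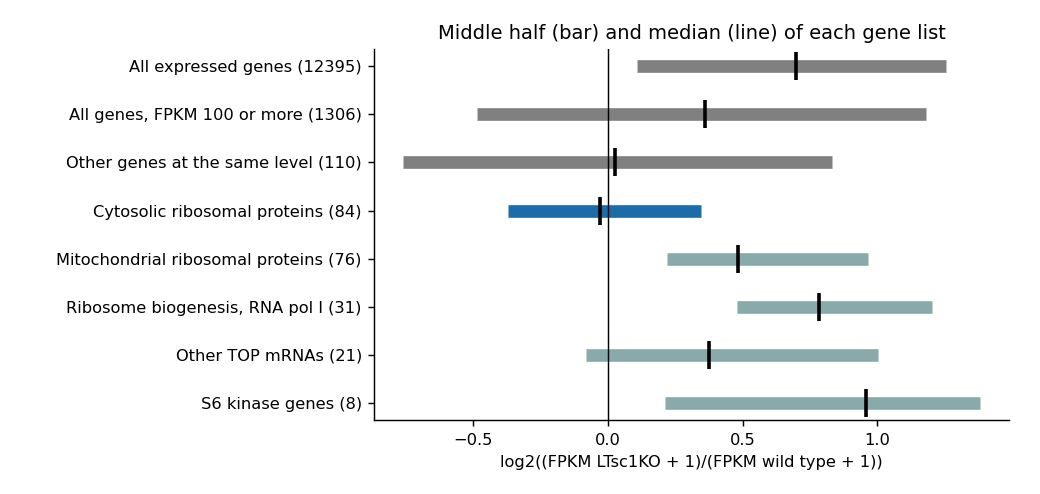
Log2 ratio, LTsc1KO-labelled over WT-labelled library, of the expressed genes of each list (x axis), with the interquartile range as a bar, the median as a black line and the number of expressed genes after each name. The bar of the cytosolic ribosomal proteins straddles 0 and is narrower than that of all expressed genes or of other genes at the same level.

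The subunits differed a little in where their genes lay. Large subunit genes had a median log2 ratio of 0.15, with 3 of 46 at least 2-fold higher and 1 at least 2-fold lower in the LTsc1KO-labelled library. Small subunit genes had a median of -0.16, with 1 of 31 at least 2-fold higher and 0 at least 2-fold lower. Beside these counts, 35.6% of all expressed genes were at least 2-fold higher and 6.15% at least 2-fold lower. Above 0 lay 26 of the 46 large subunit genes and 11 of the 31 small subunit genes, beside 9672 of all 12395 expressed genes. Both ranges overlapped widely, from -1.46 to 1.37 in the large subunit and from -0.92 to 1.52 in the small subunit. Whether these medians differ beyond the spread between animals cannot be tested with 1 library per genotype.

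The 4 genes at least 2-fold higher in the LTsc1KO-labelled library were led by Rps2 (chr17:24718116-24721929, plus strand, GRCm38 in GENCODE M21), a protein of the small subunit near the path of the mRNA. Its FPKM was 209 in the WT-labelled library and 600 in the LTsc1KO-labelled library, a ratio of 2.87 (95% exact binomial interval 2.78 to 2.96, counting error only). Summed with its near copies, as described further on, that ratio was 1.23. Rplp0 (chr5:115559467-115563727, plus strand), the core of the stalk, was at 301 in the WT-labelled library and 778 in the LTsc1KO-labelled library, a ratio of 2.58 (2.52 to 2.65). Rpl35 (chr2:39001580-39005624, minus strand), a protein at the exit of the peptide tunnel, was at 27.9 in the WT-labelled library and 72.4 in the LTsc1KO-labelled library, a ratio of 2.59 (2.33 to 2.89). Another annotated gene on the opposite strand covers 28.5% of the coding bases of Rpl35, and whether counting used strand was not given in the sources used here. Rpl15 (chr14:18267823-18271391, minus strand), a structural protein of the large subunit core, was at 213 in the WT-labelled library and 521 in the LTsc1KO-labelled library, a ratio of 2.44 (2.37 to 2.52). With the median ratio set to 0, none of the 4 reached 2-fold, and each still had a ratio above 1.

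Below the limit came Rps3, a small subunit protein at the entry of the mRNA that also acts in DNA repair, at 122 in the WT-labelled library and 238 in the LTsc1KO-labelled library. Its log2 ratio of 0.97 was the nearest outside the 2-fold limit, and the 1.28 of Rpl15 was the nearest inside. Rpl32 was at 371 in the WT-labelled library and 688 in the LTsc1KO-labelled library, and Rpl29, a heparin-binding protein of the large subunit, was at 146 and 270. Rpl37 was at 206 in the WT-labelled library and 347 in the LTsc1KO-labelled library.

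Among the standard genes, Rplp2 (chr7:141447370-141451585, plus strand) alone was at least 2-fold lower. Rplp2 is the partner of Rplp1 in the stalk, and its FPKM was 622 in the WT-labelled library and 225 in the LTsc1KO-labelled library, a ratio of 0.362 (0.349 to 0.376). The 3 stalk genes thus took different directions as deposited: Rplp0 was higher, Rplp2 was lower, and Rplp1 had a ratio of 0.917 (0.900 to 0.934). Rps24, a small subunit protein mutated in some families with Diamond-Blackfan anaemia, was at 540 in the WT-labelled library and 286 in the LTsc1KO-labelled library. Its log2 ratio of -0.92 was the nearest outside the limit, and the -1.46 of Rplp2 the nearest inside.

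Rps9, another small subunit gene at the low end, was at 531 in the WT-labelled library and 300 in the LTsc1KO-labelled library. In the large subunit, Rpl28 was at 736 in the WT-labelled library and 420 in the LTsc1KO-labelled library, and Rpl36 was at 659 and 404. Counting error was small against these differences: the interval of a standard gene's ratio reached a median of 3.15% to either side, and 69 of the 77 intervals left out 1. It says nothing of the spread between animals.

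**Figure D3:**
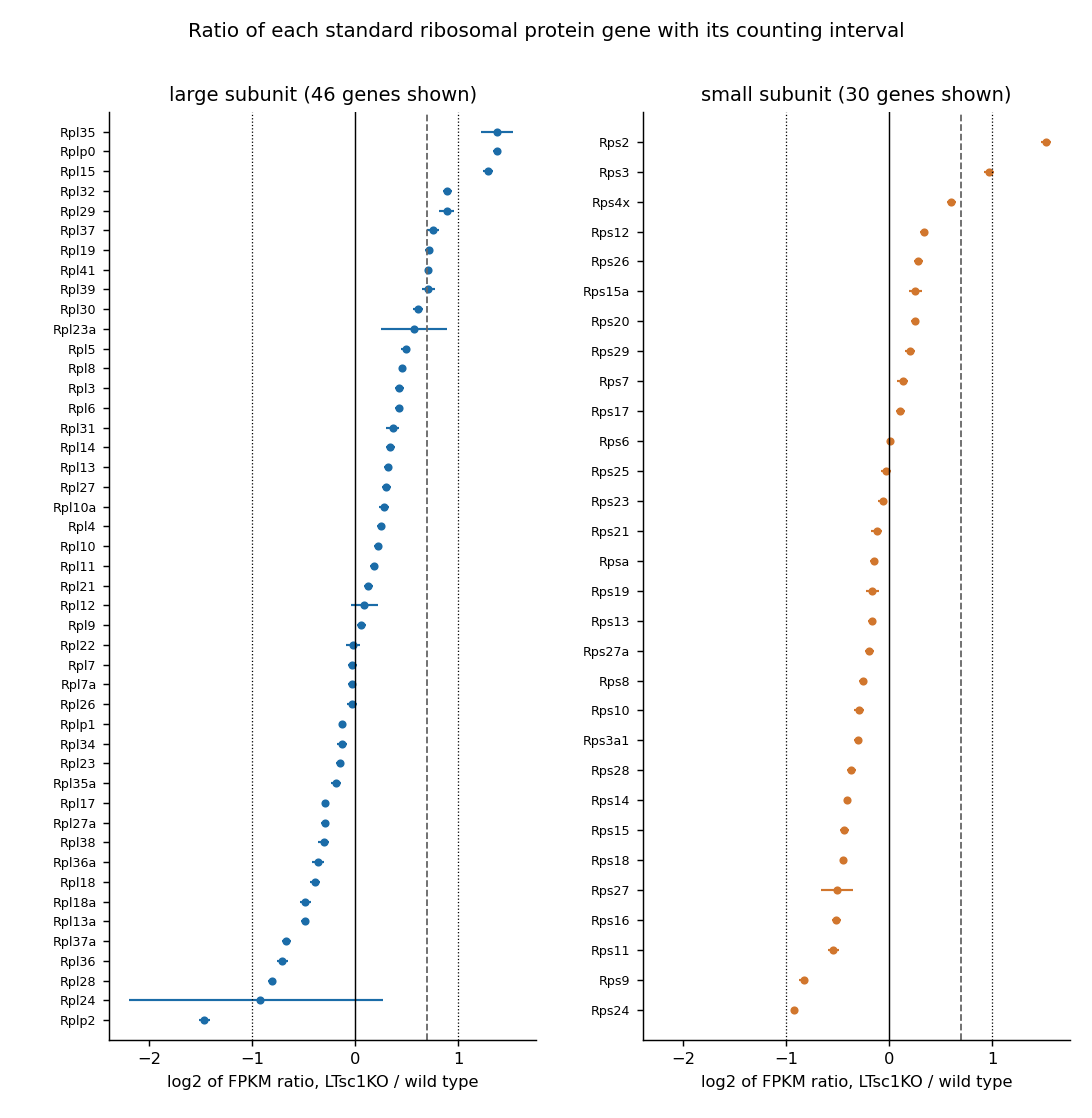
Log2 ratio of FPKM, LTsc1KO-labelled over WT-labelled library, of the standard genes of the large (left) and small (right) subunit, 1 gene not shown, without a pseudocount, with its 95% counting interval as a bar. Dotted lines mark 2-fold and the dashed line marks the median of all expressed genes at 0.70; most genes lie left of the dashed line, and the wide bar of Rpl24 rests on 18 and 10 reads.

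Rps6 and 4 of the ribosomal proteins with known roles outside the ribosome differed by less than 1.5-fold. Rps3, described above, also has such a role, and it differed by more, with a ratio of 1.96 (1.90 to 2.03). Rps6, the substrate for which the S6 kinases downstream of mTORC1 are named, was at 641 in the WT-labelled library and 645 in the LTsc1KO-labelled library, a ratio of 1.01 (0.984 to 1.03). Rpl5, which with Rpl11 can bind and inhibit the p53 regulator Mdm2, was at 263 in the WT-labelled library and 369 in the LTsc1KO-labelled library. Rpl11 was at 484 in the WT-labelled library and 549 in the LTsc1KO-labelled library. Rpl23, another Mdm2-binding protein, was at 610 in the WT-labelled library and 551 in the LTsc1KO-labelled library. Rpsa, also known as a laminin receptor, was at 445 in the WT-labelled library and 401 in the LTsc1KO-labelled library. The ratios of Rps6, Rpl5, Rpl11, Rpl23 and Rpsa lay within 1.5-fold, where 58 of the 84 expressed genes lay. Beyond 1.5-fold were 15 higher genes, against 55.6% of all expressed genes, and 11 lower genes, against 10.2%.

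The TOP motif lies at the very start of the mRNA, so windows of 30 bases around the annotated start, 15 bases to each side, were read from RefSeq (GRCm38.p6). The windows are shown for all 4 genes at least 2-fold higher in the LTsc1KO-labelled library, for 3 at the low end and for Rps6, to let their starts be compared. Capitals mark the longest run made of a C followed by at least 4 bases that are each C or T, read on the sense strand, 5′ to 3′, and each line ends 15 bases into the transcript. The windows lie at chr17:24720048-24720077 (plus) for Rps2, chr5:115559452-115559481 (plus) for Rplp0, chr2:39005117-39005146 (minus) for Rpl35, chr14:18270972-18271001 (minus) for Rpl15, chr7:141447636-141447665 (plus) for Rplp2, chr14:24490663-24490692 (plus) for Rps24, chr7:4792950-4792979 (plus) for Rpl28 and chr4:86857353-86857382 (minus) for Rps6.
Rps2: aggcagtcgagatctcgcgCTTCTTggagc
Rplp0: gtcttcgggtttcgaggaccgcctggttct
Rpl35: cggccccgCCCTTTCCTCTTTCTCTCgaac
Rpl15: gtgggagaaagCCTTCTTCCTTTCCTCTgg
Rplp2: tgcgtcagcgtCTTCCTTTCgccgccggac
Rps24: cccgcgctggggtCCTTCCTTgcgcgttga
Rpl28: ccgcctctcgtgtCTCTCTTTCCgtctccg
Rps6: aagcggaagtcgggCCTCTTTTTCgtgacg
Among the 4 higher genes the run was 18 bases long in Rpl35, 17 in Rpl15 and 6 in Rps2, and the window of Rplp0 held none. Among the lower genes it was 10 bases long in Rpl28, 9 in Rplp2 and 8 in Rps24, and in Rps6 it was 10. Rps24 has another annotated start, whose window holds no such run, and neither do the windows of Rps3 and Rpl37. Of 67 windows of 57 standard genes, 39 (58.2%) held the motif on the sense strand and 28.4% on the other strand. Of all 32851 RefSeq start windows, 36.4% held it on the sense strand and 40.8% on the other. The first transcribed base was a C followed by 4 bases that are each C or T in 19.4% of the ribosomal protein windows and 2.51% of all windows, runs that reach upstream of the start included. A match is a description of the letters in these windows, and no match says only that the letters are absent there.

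Paralogs of ribosomal proteins showed the widest differences. Rpl3l (chr17:24727820-24736143, plus strand), the form of Rpl3 made in skeletal and heart muscle, had an FPKM of 19.9 in the WT-labelled library, from 556 reads, and 0.0340 in the LTsc1KO-labelled library, from 1 read. The ratio was 0.00171, with a counting interval of 4.32e-05 to 0.00957. Beside it, all 10 skeletal muscle markers were at least 2-fold lower in the LTsc1KO-labelled library, where 6.15% of all expressed genes were. The markers had a summed FPKM of 3511 in the WT-labelled library and 3.04 in the LTsc1KO-labelled library. In the latter, 4 of them (Myh1, Myh4, Mb and Tnnt3) were at 0. Their part in the Rpl3l value was not tested. In bulk tissue, fewer cells of a type and less RNA per cell cannot be told apart. Rpl3 itself, of which Rpl3l shares 73.4% of coding bases, was at 220 in the WT-labelled library and 296 in the LTsc1KO-labelled library.

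Rps4l (chr6:148354656-148355598, plus strand), annotated as a transcribed processed pseudogene related to the X-linked Rps4x, was at 5.58 in the WT-labelled library and 1.12 in the LTsc1KO-labelled library, a ratio of 0.201 (0.126 to 0.298). Rps4x was at 310 in the WT-labelled library and 471 in the LTsc1KO-labelled library, in the opposite direction as deposited. Rpl7l1, a paralog of Rpl7 found on precursors of the large subunit, was at 19.6 in the WT-labelled library and 35.6 in the LTsc1KO-labelled library, while Rpl7 was at 344 and 338. Rpl39l, a paralog of Rpl39 best known from the testis, had 1 read in the WT-labelled library and 4 in the other.

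Rpl22l1, a paralog that can take the place of Rpl22, was at 125 in the WT-labelled library and 69.3 in the LTsc1KO-labelled library, a ratio of 0.555 (0.518 to 0.595). Rpl22 was at 139 in the WT-labelled library and 137 in the LTsc1KO-labelled library, so that Rpl22l1 had 90.0% of the level of Rpl22 in the first and 50.7% in the second. That percentage is taken within a library and does not depend on the scaling. Rpl36al kept close to Rpl36a, with 84.0% of its level in the WT-labelled library and 87.3% in the LTsc1KO-labelled library. The coding sequences of Rpl36a and Rpl36al are 87.7% identical, those of Rpl22 and Rpl22l1 67.7%.

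The Rps27 family showed an exchange of order. Rps27 encodes a zinc finger protein of the small subunit, Rps27rt is an extra copy on another chromosome, and Rps27l is a paralog known in human and mouse cells as a target of p53. The coding sequences below show that reads from inside the coding sequence of the first pair cannot be told apart, while Rps27l differs from both along its length. They are taken from GENCODE M21 (GRCm38) for Rps27 (chr3:90212522-90213651, minus strand), Rps27rt (chr9:114982366-114982739, minus strand) and Rps27l (chr9:66946086-66949516, plus strand), 252 bases each without the stop codon, with introns removed. Capitals mark the 60 bases at which Rps27l differs.
Rps27 and Rps27rt: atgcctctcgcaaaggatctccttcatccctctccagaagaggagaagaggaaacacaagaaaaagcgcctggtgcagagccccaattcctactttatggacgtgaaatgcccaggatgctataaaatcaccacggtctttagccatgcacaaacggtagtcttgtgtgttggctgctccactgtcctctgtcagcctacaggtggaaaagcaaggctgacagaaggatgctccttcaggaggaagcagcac
Rps27l: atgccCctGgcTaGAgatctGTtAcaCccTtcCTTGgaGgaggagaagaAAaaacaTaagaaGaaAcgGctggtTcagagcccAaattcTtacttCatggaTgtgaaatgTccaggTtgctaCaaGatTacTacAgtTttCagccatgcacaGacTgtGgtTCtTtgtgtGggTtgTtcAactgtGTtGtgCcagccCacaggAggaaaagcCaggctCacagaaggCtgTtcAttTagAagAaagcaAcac
Rps27 and Rps27rt were identical over all 252 bases, and Rps27l matched them at 76.2%. Rps27 was at 60.8 in the WT-labelled library and 42.8 in the LTsc1KO-labelled library, and Rps27rt was at 725 and 402. How the reads of identical sequences were divided was not given in the sources used here, so their sum is the safer value: 786 in the WT-labelled library and 445 in the LTsc1KO-labelled library, a ratio of 0.566. Rps27l was at 333 in the WT-labelled library and 617 in the LTsc1KO-labelled library, a ratio of 1.85 (1.78 to 1.92). Rps27l therefore stood at 42.4% of the summed level of Rps27 and Rps27rt in the WT-labelled library and at 139% in the LTsc1KO-labelled library, whatever the scaling between libraries.

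**Figure D4:**
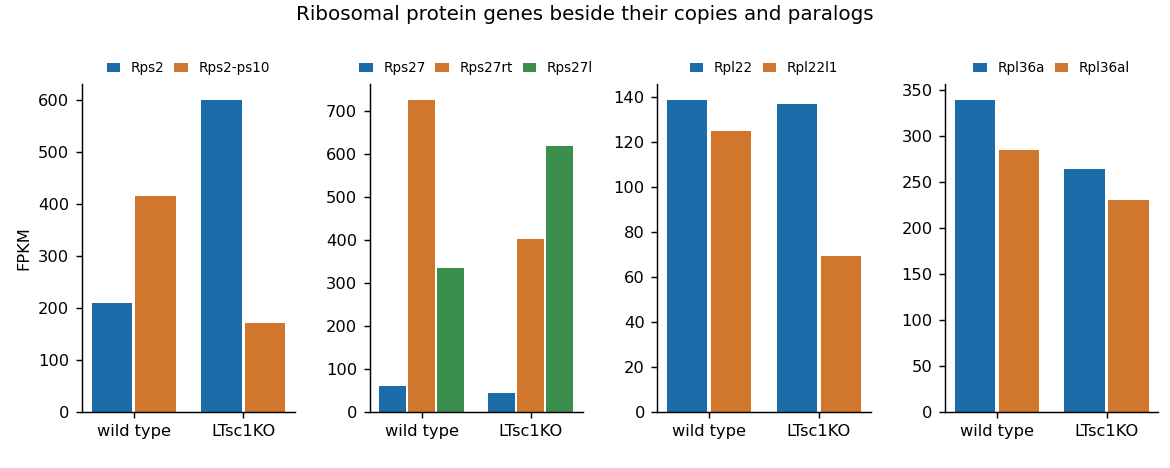
FPKM (y axis, from 0, with a scale of its own in each panel) in the 2 libraries for Rps2 with its processed copy Rps2-ps10, for the Rps27 family, for Rpl22 with Rpl22l1 and for Rpl36a with Rpl36al. Rps2 and Rps2-ps10 change places, as do Rps27rt and Rps27l, while Rpl36al stays just under Rpl36a.

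Ribosomal protein genes have left many processed copies in the mouse genome, and their reads can be shared between copies. Of the 77 standard genes, 32 had no 36-base word of coding sequence that was absent from all other annotated transcripts, and 53 had under 10% of such words. The median was 3.70%. Toward the other end, Rpl8 had 89.5% unique words, Rps3 had 85.2% and Rpl4 had 67.9%. The 13 standard genes with at least 25% had a median log2 ratio of -0.12, and the other 64 had a median of -0.01. Of the 13, 1 was at least 2-fold higher and 0 lower, beside 35.6% and 6.15% of all expressed genes. Across the 77 genes the ratio had a Pearson's r of -0.04 with the share of unique words, 0.25 with coding length and -0.07 with GC content, all over the same 2 libraries.

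Rps2, the gene with the highest ratio, has an abundant copy. Rps2-ps10, a processed copy that holds 81.9% of the coding words of Rps2, was at an FPKM of 416 in the WT-labelled library and 172 in the LTsc1KO-labelled library, the opposite direction to Rps2. Summed with its 10 near copies, Rps2 was at 629 in the WT-labelled library and 773 in the LTsc1KO-labelled library, a ratio of 1.23, which is under 2-fold. For Rplp0 the copy Gm8730 was at 89.7 in the WT-labelled library and 96.7 in the LTsc1KO-labelled library, and the summed ratio of 2.24 stayed over 2-fold. Rpl3-ps1 was at 25.2 in the WT-labelled library and 55.6 in the LTsc1KO-labelled library, and Rps12-ps3, a full copy of the coding words of Rps12, was at 98.2 and 57.8. Outside the 91 genes, 49 expressed genes held at least 50% of the coding words of a ribosomal protein gene. Of these 40 had a log2 ratio below 0 as deposited, 11 were at least 2-fold lower and 3 at least 2-fold higher in the LTsc1KO-labelled library. Of all 12395 expressed genes 2723 were below 0, 6.15% were at least 2-fold lower and 35.6% higher. Copies that reached an FPKM of 1 in the WT-labelled library only, such as Gm10136 and Gm8451, lie below 0 through that filter. Those that reached it in the LTsc1KO-labelled library only, such as Rpl38-ps2 and C330021F23Rik, lie above 0 in the same way. The counts for copies rest in part on such genes. Whether reads were counted once, several times or left out when they matched several genes was not given in the sources used here.

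**Figure D5:**
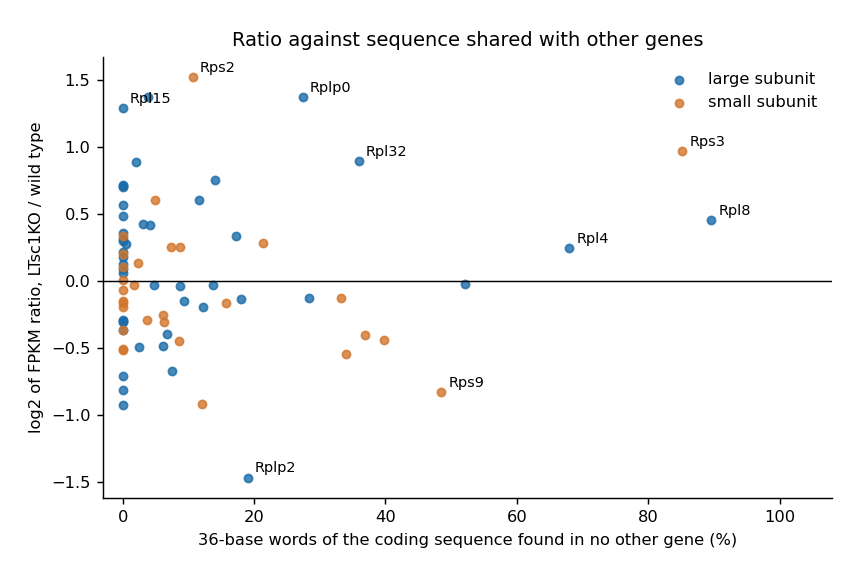
Log2 ratio of FPKM, LTsc1KO-labelled over WT-labelled library (y axis), against the percentage of a gene's 36-base coding words found in no other annotated gene (x axis), for the standard genes coloured by subunit, 1 gene not shown. Most genes lie at the left edge, and genes with over 25% unique words lie both above and below 0.

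Genes that work with the ribosomal proteins were read from lists of their own. Mitochondrial ribosomal protein genes, which build the separate ribosome of mitochondria, had a median log2 ratio of 0.48, with 17 of 76 expressed genes at least 2-fold higher and 0 lower in the LTsc1KO-labelled library. Mrps6 was at 7.13 in the WT-labelled library and 46.3 in the LTsc1KO-labelled library, Mrps22 at 3.97 and 16.3, and Mrps18b at 6.28 and 24.0. Ribosome biogenesis and RNA polymerase I genes had a median of 0.79, with 14 of 31 at least 2-fold higher and 0 lower. Among them Nhp2, a small nucleolar RNA-binding protein, was at 27.9 in the WT-labelled library and 130 in the LTsc1KO-labelled library, Nop56 at 18.3 and 73.7, and Bop1 at 5.74 and 23.3. Among all expressed genes 35.6% were at least 2-fold higher and 6.15% lower, with a median of 0.70. The share of higher genes was 22.4% in the first list and 45.2% in the second. In the second list a few genes make up its distance from the background, and its median was near that of all genes.

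Other TOP mRNAs had a median of 0.37, with 6 of 21 genes (28.6%) at least 2-fold higher and 1 (4.76%) lower. For a list of this length, both shares were near the 35.6% and 6.15% of all expressed genes. The initiation factor subunits Eif3l and Eif3a were at 26.2 and 21.4 in the WT-labelled library and at 88.7 and 65.6 in the LTsc1KO-labelled library, and Hnrnpa1 was at 27.0 and 82.1. Tpt1, the translationally controlled tumour protein, was the lower gene, at 1607 in the WT-labelled library and 751 in the LTsc1KO-labelled library. Fau, which encodes a ribosomal protein fused to a ubiquitin-like protein, and Rack1, a scaffold on the small subunit, fall outside the name rule. Fau was at 730 in the WT-labelled library and 492 in the LTsc1KO-labelled library, and Rack1 at 203 and 273.

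The S6 kinase genes, which carry the name of Rps6, had a median of 0.96, with 4 of 8 expressed genes at least 2-fold higher and 1 lower in the LTsc1KO-labelled library, beside 35.6% and 6.15% of all expressed genes. Rps6kb1, a kinase directly under mTORC1, was at 12.5 in the WT-labelled library and 17.7 in the LTsc1KO-labelled library. Its relative Rps6kb2 went the opposite way as deposited, at 24.6 in the WT-labelled library and 16.2 in the LTsc1KO-labelled library. Rps6ka1 and Rps6ka3 belong to the RSK branch, which answers to ERK: Rps6ka1 was at 2.77 in the WT-labelled library and 18.6 in the LTsc1KO-labelled library, and Rps6ka3 was at 4.73 and 14.0. Rps6kc1 was at 2.57 and 8.29. Beside these lists, all 5 proliferation markers were at least 2-fold higher in the LTsc1KO-labelled library, with a summed FPKM of 2.22 in the WT-labelled library and 188 in the other, and their part in the ratios above was not tested.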

How the data were processed

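The authors deposited FPKM, with a single value for each gene in each library, per the file headers. CASAVA 1.7, Bowtie 0.12.2 and mm8 are named in the submitters' processing notes, without their roles. The counter, annotation, strand setting and treatment of reads with several matches were not given in the sources used here. Of 35275 Ensembl IDs, 34490 (97.8%) matched a symbol of GENCODE M21 on GRCm38, and positions are from that annotation.

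Reads were recovered as FPKM times the mean annotated transcript length of the gene, rounded, times the library total. At totals of 27919645 and 29351163, 8681 of 17104 genes above 0 in both libraries (50.8%) gave whole reads within 0.001 read. Reads were whole for 39 of the 91 members and estimated from annotated length for 52. Those lengths belong to a later build than mm8, which was not resolved. No count model was used. Intervals are 95% Clopper-Pearson intervals on reads and, like the floor of 3 reads, cover counting error only. On reads simulated with these same lengths the totals and reads were recovered, which does not check the lengths themselves.

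Log2 ratios carry a pseudocount of 1, which understates differences of low genes, and genes that reach an FPKM of 1 in either library count as expressed. Ratios with intervals have no pseudocount. Members, lists and the rule for named genes were chosen with earlier results of these data known. The class of 110 genes of like level was chosen after these values were seen. Every member is accounted for in the counts, and some genes that the rule names are not reported here singly. Values are given for the 10 highest and 10 lowest ratios, the 5 highest and 5 lowest levels, the paralogs with their parents, members at 0, genes of known extra roles and the 3 largest ratios of each other list. The cell type lists were hepatocyte, skeletal muscle, macrophage, neutrophil, B and T lymphocyte, endothelial, stellate, cholangiocyte, erythroid and proliferation markers. Unique sequence was the share of 36-base words of the coding sequence absent from all other GENCODE M21 transcripts on either strand. Start windows were RefSeq sequences of GRCm38.p6. Alternatives changed the pseudocount, the filter, the scaling, the fold limit, the members and the denominator of the share. Scripts ran in Python 3.11.15 with biopython 1.88, scipy 1.17.1, matplotlib 3.10.9, pandas 2.3.3 and numpy 2.4.6.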

Additional observations from a re-analysis of the deposited data

How the results depend on the processing

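With the median ratio of all genes set to 0, which shifts log2 ratios by -0.72, the median of the ribosomal protein genes was -0.74, with 0 genes at least 2-fold higher and 28 lower, against 15.6% and 12.7% of all genes. Upper quartile scaling, which shifts them by -0.88, gave -0.90, with 0 higher and 37 lower. Equal sums of FPKM gave 0.15 and 9 higher. Totals without the 10 most abundant genes gave -0.12. The distance to the median of all genes was -0.73 as deposited, and ran from -0.83 to -0.70 over all scalings, which move both medians together. A 1.5-fold limit gave 15 higher and 11 lower. Leaving out the paralogs gave 1 lower. Alternatives chosen after seeing the data were the standard genes only, with 1 lower, and the 17 members with at least 25% unique coding words, with a median of -0.12 and 1 higher. Pseudocounts of 0.1 and 5, other filters and totals without the muscle markers gave medians of -0.04 to -0.03, 4 higher and 2 or 3 lower.

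The share of summed FPKM was 6.02% in the WT-labelled library and 5.68% in the LTsc1KO-labelled library without the 10 most abundant genes, 2.41% and 2.47% of reads, and 4.13% and 4.66% without the paralogs. The 7 members at least 2-fold apart kept their sign in all 49 values tried. That was fixed beforehand, since every scaling shifts log2 ratios by less than the 2-fold limit and a pseudocount cannot turn a sign. Of the 77 others, 44 changed sign in at least 1 alternative: 29 with the median ratio set to 0, 31 with upper quartile scaling, 13 with equal sums and 2 without the 10 most abundant genes. No paired analysis was possible because each genotype has 1 library. Depth left the ratios of 69 of the 77 standard genes apart from 1, while the spread between animals is not known for any of them.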

Other observations

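Pseudogenes named after ribosomal proteins were counted as genes of their own. Of 250 such names, 24 reached an FPKM of 1 in either library. Their median log2 ratio was -0.72, with 7 at least 2-fold lower and 2 at least 2-fold higher in the LTsc1KO-labelled library, and 20 of the 24 were below 0 as deposited. Of all 12395 expressed genes 6.15% were at least 2-fold lower, 35.6% higher and 2723 below 0, and their median was 0.70. Among the 24 pseudogenes, 8 reached an FPKM of 1 in 1 library only, most of them in the WT-labelled library. For those 8 the filter itself sets the sign, so the median and counts rest in part on it. With 1 library per genotype, and with reads that may match parent and pseudogene alike, this difference was not tested.

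Markers of other cell types also differed between the livers. The counts below stand beside 35.6% of all expressed genes at least 2-fold higher and 6.15% lower, and the lists are short. Erythroid markers had a summed FPKM of 783 in the WT-labelled library and 72.4 in the LTsc1KO-labelled library, with 4 of 5 expressed markers at least 2-fold lower. Cholangiocyte markers had a sum of 41.6 in the WT-labelled library and 592 in the LTsc1KO-labelled library, with 4 of 5 at least 2-fold higher. Spp1 supplied most of it, and the other 4 markers had sums of 4.65 and 17.1. Of the 5 cholangiocyte markers, 3 reached an FPKM of 1 in the LTsc1KO-labelled library only. Neutrophil markers had a sum of 128 in the first and 62.2 in the second, with 2 of 5 lower. Macrophage markers had sums of 29.9 and 76.0, with 1 of 5 expressed markers higher and 1 lower; without Cd68 the sums were 28.6 and 23.7. The stellate list had sums of 181 and 14.6, with 2 of 5 higher and 2 lower, and it shares Des with the muscle list. Endothelial markers had sums of 17.0 and 32.8, with 2 of 4 higher. Of 8 B and T lymphocyte markers 1 was expressed, and the sums were 33.4 and 4.08. The hepatocyte markers had sums of 35326 in the WT-labelled library and 24990.4 in the LTsc1KO-labelled library, with 1 of 8 higher and 2 lower. Which part these cells have in the ribosomal protein values was not tested.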
